A study of Mus musculus with 6 samples.

Results

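Smooth muscle cells, pericytes and myofibroblasts share a contractile apparatus, and 10 genes that mark these cells were followed in injured Achilles tendon of neonatal mice. They were taken by name from the 18099 genes in the deposited table: the contractile genes *Acta2*, *Tagln*, *Myh11*, *Cnn1*, *Actg2* and *Mylk*, the pericyte genes *Rgs5*, *Pdgfrb* and *Cspg4*, and *Postn*, a matrix gene of activated fibroblasts. All 10 passed the filter on low counts. RNA sequencing was performed on whole tendon tissue from 3 *LysM-Cre; Ampkα1fl/fl* mice and 3 *Ampkα1fl/fl* littermates, which are called the knockout and control groups here. Both groups carried the floxed allele of *Ampkα1* and underwent transection of the Achilles tendon, and the tissue was collected a week after the injury. The groups differed in *LysM-Cre*, which expresses Cre recombinase from the lysozyme M locus, so that the floxed gene is deleted in macrophages and other myeloid cells rather than in tendon cells. Separate mice stood behind the 3 libraries of each group. The comparison asks whether the contractile and pericyte genes, chosen as a readout of scar formation, differed between the groups. The same genes mark cells of the vessel wall, and scar itself was not measured in these libraries.

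In healing tissue, fibroblasts and cells of the vessel wall can become myofibroblasts, which assemble bundles of α-smooth muscle actin and pull on the matrix around them. Myosin drives the contraction once myosin light chain kinase has phosphorylated its regulatory light chain, and calponin and transgelin bind the actin filaments. Pericytes wrap the capillaries, depend on platelet-derived growth factor from the endothelium, and are recognised by the growth factor receptor β, the proteoglycan NG2 and the signalling regulator RGS5. In tendon, cells with smooth muscle actin occur in the walls of vessels and in the scar that forms after injury.

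The libraries held between 18076812 and 19479895 reads assigned to genes, and the 10 most abundant genes took between 17.2% and 18.4% of them. *Lyz2*, which encodes lysozyme M and carries the Cre insertion, had 390, 425 and 404 CPM (the read count scaled to library size with edgeR's TMM factors) in the control mice and 0.469, 0.811 and 0.432 CPM in the knockout mice. *Prkaa1*, which encodes AMPKα1 and was targeted in myeloid cells, had 39.2, 37.6 and 37.8 CPM in the control mice and 32.6, 40.6 and 35.2 CPM in the knockout mice, so its whole-tissue level overlapped between the groups. Presence of Cre, loss of *Lyz2* RNA and targeting of *Ampkα1* went together in the knockout mice, so their effects cannot be told apart here. Tendon markers were present in every library, with 10 genes that summed to between 9352 and 11349 CPM. Skeletal muscle markers differed widely between libraries. The summed level of 20 such genes was 256, 802 and 4338 CPM in the control mice and 4584, 1457 and 12621 CPM in the knockout mice, and the third knockout mouse stood apart from the others.

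Per transcript length, the 10 genes covered a wide range of levels. In the control group, *Postn* was the most abundant with a mean of 9035 TPM (a level scaled to transcript length and to an equal total per library), followed by *Acta2* with 873 TPM, *Tagln* with 359 TPM, *Rgs5* with 257 TPM and *Actg2* with 175 TPM. *Pdgfrb* had 88.7 TPM, *Mylk* 63.1 TPM, *Myh11* 57.9 TPM, *Cnn1* 42.0 TPM and *Cspg4* 24.8 TPM. The ranges of neighbours in this order did not overlap among the control mice, with 1 exception. *Mylk* covered 60.3 to 66.0 TPM and *Myh11* 50.4 to 64.2 TPM. In the knockout group the lower end of the order was less distinct, because *Myh11* spread from 17.8 to 51.9 TPM and *Cnn1* from 14.6 to 47.3 TPM, and both overlapped *Mylk* at 36.2 to 46.2 TPM and *Cspg4* at 20.4 to 23.4 TPM. *Actg2* in the knockout mice (87.1 to 198 TPM) overlapped both *Rgs5* (194 to 202 TPM) and *Pdgfrb* (95 to 128 TPM), from which it was separate in the control mice.

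**Figure D1:**
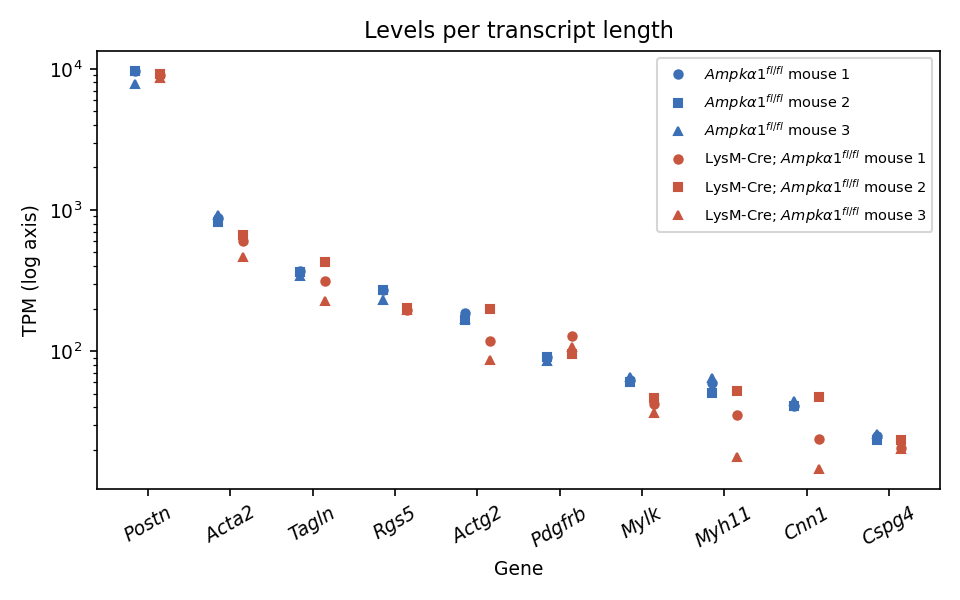
Level of each of the 10 genes in TPM (log axis), ordered by the mean over all libraries, with 1 point per mouse (control in blue, knockout in red, mouse number by shape). *Postn* sits far above the other genes, and the knockout points of *Actg2*, *Myh11* and *Cnn1* spread further than the control points.

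*Mylk* was the only one of the 10 genes that passed the test across all genes. *Mylk* (NCBI Gene 107589, chromosome 16, 34745199 to 35002436 in GRCm38.p6) encodes myosin light chain kinase. Its level was 148, 149 and 159 CPM in the control mice and 103, 104 and 89.5 CPM in the knockout mice. The groups did not overlap, and the mice of each group lay close together. *Mylk* expression was downregulated to 65.0% of the control mean, with a log2 fold change of -0.62 (SE 0.07, 95% interval -0.79 to -0.45), and its adjusted p was 0.0207 in edgeR's quasi-likelihood test with Benjamini-Hochberg adjustment over 14261 genes. In the fit that blocks on replicate number, the log2 fold change was also -0.62 and the adjusted p was 0.0611, above the threshold of 0.05. Leaving out 1 mouse at a time gave log2 fold changes between -0.66 and -0.55. The call was lost without the first (adjusted p = 0.11), the second (0.116) or the third control mouse (0.0656) or the first knockout mouse (0.0968), and was kept without the second (0.0302) or the third knockout mouse (0.0334). In bulk tissue, fewer cells of a type and less RNA per cell cannot be told apart, and this holds for each gene described here.

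*Acta2* (NCBI Gene 11475, chromosome 19, 34240336 to 34255585), which encodes α-smooth muscle actin, was the most abundant contractile gene. Its level was 620, 610 and 628 CPM in the control mice and 425, 497 and 336 CPM in the knockout mice. Each knockout mouse was below each control mouse, and the knockout mice differed more among themselves, with a coefficient of variation of 19.2% against 1.45%. The knockout mean was 67.6% of the control mean and the log2 fold change was -0.56 (SE 0.13, 95% interval -0.88 to -0.25). This difference did not pass across all genes in edgeR (unadjusted p = 0.0041, adjusted p = 0.124), whereas DESeq2 gave an adjusted p of 0.000489. An exact permutation test of 3 mice against 3, two-sided, gave p = 0.1, the smallest p it can give. Without the second knockout mouse the log2 fold change was -0.70 and the edgeR adjusted p was 0.0445. Without the third it was -0.43 with an adjusted p of 0.139.

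Serum response factor acts on smooth muscle genes through the CArG box, a motif of CC, 6 letters that are mostly A or T, and GG, which reads the same on both strands. The 2 matches that follow are shown because *Acta2* was the 1 gene with a match among the 6 of the 10 genes that have a promoter in the RefSeq table of GRCm38.p6. They were found in the window from 250 bases before to 50 after the annotated start, with up to 1 C or G allowed among the 6 central letters. The box is in capitals, the strand is minus, and positions count from the start site.
Box at -84 to -75, chr19:34255438-34255467: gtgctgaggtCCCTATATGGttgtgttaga
Box at -34 to -25, chr19:34255388-34255417: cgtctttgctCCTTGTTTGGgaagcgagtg
Of 32851 mouse promoters in the same table, 9.98% held 1 or more boxes by this definition, 0.822% held 2 or more, and 1.63% held a box with only A or T in the centre. A match is a run of letters and was not tested as a binding site.

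The other muscle actin of the vessel wall and gut, *Actg2* (NCBI Gene 11468, chromosome 6, 83512909 to 83536251), encodes γ-enteric smooth muscle actin. It had 92.8, 85.3 and 83.6 CPM in the control mice and 58.8, 95 and 44.4 CPM in the knockout mice. The second knockout mouse had the highest level of all 6 mice and the third the lowest, so the groups overlapped. Its log2 fold change was -0.40 (SE 0.25, edgeR adjusted p = 0.527), and without the third knockout mouse it was -0.18.

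Actin genes are near-identical in their coding parts, so reads can be split between them by the counting. *Acta1*, the actin of skeletal muscle, had 65.5, 242 and 1314 CPM in the control mice and 1226, 484 and 3844 CPM in the knockout mice. *Actc1*, the cardiac actin that skeletal muscle also makes during development, had 3.76, 16.1 and 72.8 CPM in the control mice and 30.9, 24.4 and 160 CPM in the knockout mice. Both spread far more than *Acta2* did, and the third mouse of each group was the highest of its group. The actins that every cell makes differed by little, with log2 fold changes of -0.06 (SE 0.10) for *Actb* and -0.00 (SE 0.08) for *Actg1*. How much the split of reads between actins contributed to the levels of *Acta2* and *Actg2* was not tested.

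*Myh11* (NCBI Gene 17880, chromosome 16, 14194527 to 14292188) encodes the smooth muscle myosin heavy chain, a marker of mature smooth muscle. It had 144, 126 and 160 CPM in the control mice and 90.2, 125 and 45.7 CPM in the knockout mice. The second knockout mouse was almost level with the lowest control mouse, and the third had the lowest value by far. The log2 fold change was -0.72 (SE 0.33, 95% interval -1.50 to 0.05), the lowest value among the 10 genes, and the edgeR adjusted p was 0.375 (unadjusted p = 0.0626). Leaving out the second knockout mouse gave -1.08, and leaving out the third gave -0.42.

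*Cnn1* (NCBI Gene 12797, chromosome 9, 22099221 to 22109221) encodes calponin 1, which restrains the myosin motor on actin. It had 23.9, 23.9 and 25.9 CPM in the control mice and 14.0, 25.7 and 8.49 CPM in the knockout mice. The second knockout mouse sat within the control range, and the knockout mice varied by a coefficient of 54.7% against 4.79% in the control mice. The log2 fold change was -0.61 (SE 0.35, edgeR adjusted p = 0.49), or -1.13 without the second knockout mouse and -0.31 without the third.

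*Tagln* (NCBI Gene 21345, chromosome 9, 45929628 to 45936058) encodes transgelin, an actin-binding protein that appears early when a smooth muscle cell or myofibroblast forms. It had 233, 237 and 215 CPM in the control mice and 201, 263 and 146 CPM in the knockout mice. The groups overlapped, with the highest and the lowest level both in knockout mice. Its log2 fold change was -0.17 (SE 0.19, edgeR adjusted p = 0.753) and was 0.02 without the third knockout mouse. The annotation places the end of *Pcsk7* over *Tagln*, and whether the counting used strand is not given in the sources used here.

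**Figure D2:**
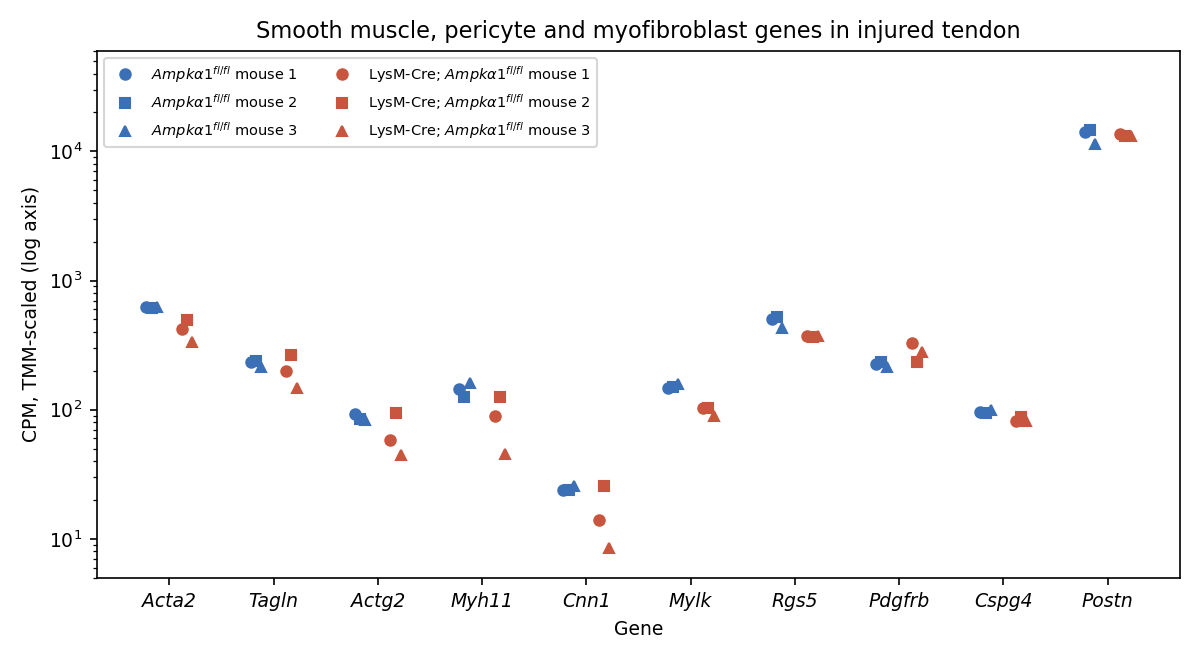
Level of each gene in CPM (log axis) in each mouse, control in blue and knockout in red, with the shape giving the mouse number. For *Acta2*, *Mylk*, *Rgs5*, *Cspg4* and *Myh11* all knockout points lie under all control points, and the third knockout mouse is the lowest of 6 for each of the 6 contractile genes.

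The 6 contractile genes thus had log2 fold changes from -0.72 to -0.17, and the order of the knockout mice was the same for each of them. The third knockout mouse was the lowest of all 6 mice for all 6 genes, the first was the second lowest, and the second was the highest knockout mouse. In *Actg2* and *Tagln* the second knockout mouse was the highest of all. The summed level of skeletal muscle markers was 4584, 1457 and 12621 CPM in the knockout mice, the reverse of their order for the contractile genes. In the control mice it was 256, 802 and 4338 CPM. The third control mouse was the highest of all mice for *Acta2*, *Myh11*, *Cnn1* and *Mylk*. The part of muscle tissue in these levels was not tested.

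The 3 pericyte genes differed in direction, and 0 of them passed the edgeR test across all genes, against 0.898% of all genes. Each had an unadjusted p under 0.05 in that test, against 14.5% of all genes. *Rgs5* (NCBI Gene 19737, chromosome 1, 169655501 to 169695813) encodes a regulator of G protein signalling that is abundant in pericytes. It had 503, 525 and 427 CPM in the control mice and 372, 368 and 375 CPM in the knockout mice. The groups did not overlap, and here the knockout mice were the tighter group, with a coefficient of variation of 0.98% against 10.5%. The log2 fold change was -0.38 (SE 0.08, 95% interval -0.58 to -0.19). The adjusted p was 0.101 in edgeR and 0.000743 in DESeq2. Leaving out the third control mouse, the lowest of its group, gave -0.47 with an edgeR adjusted p of 0.0512.

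*Cspg4* (NCBI Gene 121021, chromosome 9, 56865104 to 56899870) encodes the proteoglycan NG2 on the pericyte surface. It had 95.5, 93.6 and 100 CPM in the control mice and 81.2, 87.9 and 81.3 CPM in the knockout mice. Both groups were tight and did not overlap, and the difference was small. The log2 fold change was -0.21 (SE 0.06, 95% interval -0.34 to -0.08, edgeR adjusted p = 0.157).

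*Pdgfrb* (NCBI Gene 18596, chromosome 18, 61045127 to 61085067), the receptor through which pericytes and many fibroblasts respond to platelet-derived growth factor, was on the opposite side. It had 225, 236 and 216 CPM in the control mice and 327, 234 and 279 CPM in the knockout mice. The second knockout mouse sat within the control range and the other two were above it. The log2 fold change was 0.31 (SE 0.12, 95% interval 0.03 to 0.59) and the edgeR adjusted p was 0.299, and without the first knockout mouse the log2 fold change was 0.18.

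**Figure D3:**
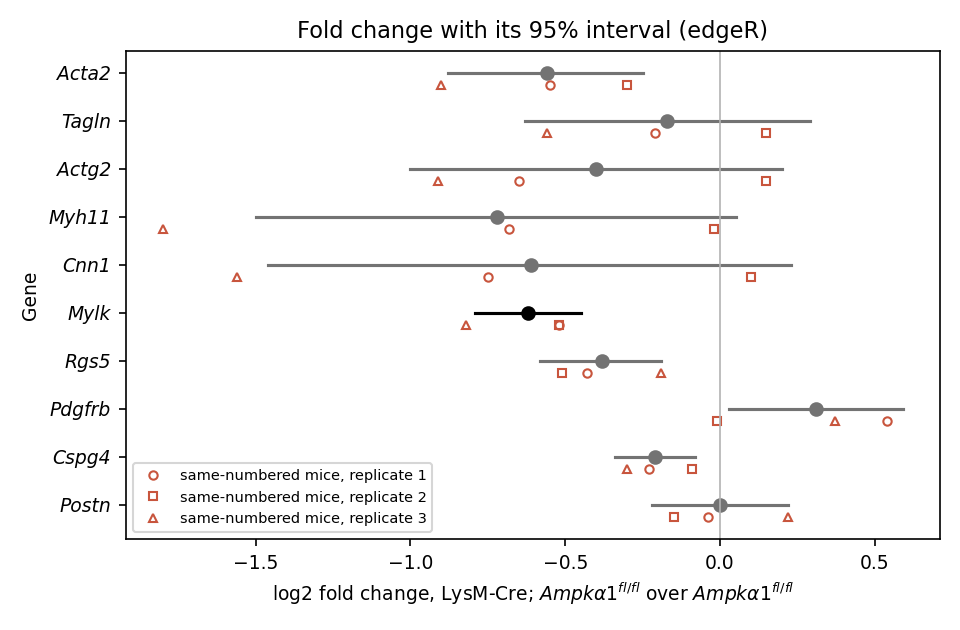
Log2 fold change of each gene, knockout over control, with its 95% interval from edgeR (filled points and lines, black where the adjusted p is under 0.05), and the log2 ratio of each pair of same-numbered mice (open points). *Mylk* is the only black point, and the interval of *Postn* is centred on 0.00.

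*Postn* (NCBI Gene 50706, chromosome 3, 54359267 to 54391041) encodes periostin, a matricellular protein that binds collagen and integrins and is made by activated fibroblasts. It had 14020, 14543 and 11359 CPM in the control mice and 13612, 13088 and 13227 CPM in the knockout mice. The control mice enclosed all knockout mice. The group means were 13307 ± 1708 CPM and 13309 ± 271 CPM (SD, n = 3), and the log2 fold change was 0.00 (SE 0.09, 95% interval -0.22 to 0.22, edgeR adjusted p = 0.999). The interval leaves room for a change of up to 0.22 in either direction on the log2 scale.

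Although the total was level, the split of *Postn* reads between its transcripts was not. Periostin is made in several forms that differ in which exons near the C-terminal end are kept. The exons and joins that follow are shown because they tell apart 3 of the 4 transcripts that held 5% or more of the reads. Each exon is in capitals with 12 bases of the neighbouring exons in lower case, on the plus strand of GRCm38 as annotated in GENCODE M21. *NM_001198765* keeps its exon 17 of 22, at chr3:54380412-54380492, with 81 bases of coding sequence (27 codons). *NM_015784* keeps its exon 20 of 22, at chr3:54385671-54385754, with 84 bases of coding sequence (28 codons). *NM_001198766* has neither, and joins the flanking exons directly.
Exon 17 of NM_001198765: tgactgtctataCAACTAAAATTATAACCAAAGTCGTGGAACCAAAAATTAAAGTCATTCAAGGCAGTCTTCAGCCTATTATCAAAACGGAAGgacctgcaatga
Join in NM_001198766 in its place: tgactgtctatagacctgcaatga
Exon 20 of NM_015784: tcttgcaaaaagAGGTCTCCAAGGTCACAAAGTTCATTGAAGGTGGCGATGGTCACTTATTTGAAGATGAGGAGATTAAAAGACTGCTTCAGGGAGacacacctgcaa
Join in NM_001198766 in its place: tcttgcaaaaagacacacctgcaa
The fourth transcript, *NM_001368678*, was not matched to that annotation, so its exons are not described. Its ratio of reads to TPM corresponds to a transcript 282 bases longer than *NM_001198766*. By the same measure *NM_001198765* came out 85 and *NM_015784* 87 bases longer, close to the lengths of the exons they keep.

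*NM_001368678* held 25.3%, 26.5% and 35.2% of *Postn* reads in the control mice and 42.9%, 41.2% and 47.4% in the knockout mice. Each knockout mouse was above each control mouse, and the means differed by 14.9 percentage points. *NM_001198766*, the shortest form of the 4, held 19.7%, 22.4% and 16.8% in the control mice and 12.1%, 14.4% and 9.6% in the knockout mice, a difference of -7.6 points. *NM_001198765* held 29.2%, 28.3% and 27.5% against 25.8%, 23.8% and 23.1%, a difference of -4.1 points. These 3 transcripts did not overlap between the groups. Each had p = 0.1 in the two-sided exact permutation test, the smallest it can give. Shares within a gene add up to a whole, so the 3 differences are not separate results. *NM_015784* held 24.9%, 21.9% and 19.7% in the control mice and 18.6%, 19.8% and 19.3% in the knockout mice, which overlapped (exact permutation p = 0.2).

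The shares rested on 207170 to 266167 *Postn* reads per mouse. They are estimates, because reads from shared exons fit several of these transcripts and the authors' tool divided them. Shares computed from TPM gave 14.6 points for *NM_001368678*, -7.8 for *NM_001198766* and -3.9 for *NM_001198765*. Within each group, the third mouse had the highest share of *NM_001368678*, the lowest share of *NM_001198766* and the highest summed level of skeletal muscle markers, and a part of muscle tissue in the shares was not tested. Among 5598 transcripts of genes with 1000 reads or more in every library, 10.8% had shares that did not overlap between the groups, and 1.63% did so with a difference of 10 points or more. Among all 25387 transcripts compared the shares were 9.49% and 4.16%.

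**Figure D4:**
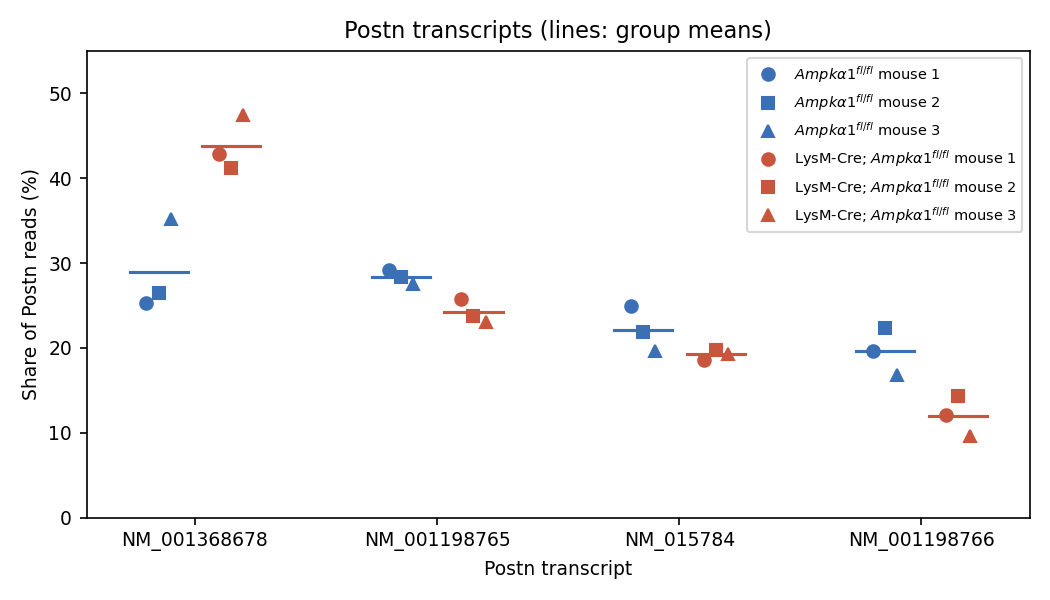
Share of *Postn* reads (%) on each of its 4 main transcripts in each mouse, control in blue and knockout in red, with lines at the group means. The knockout points of NM_001368678 (41.2% to 47.4%) lie above the control points (25.3% to 35.2%), and those of NM_001198765 and NM_001198766 lie below theirs.

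None of the other transcripts compared behaved in this way. Of 18 transcripts compared in 6 of the 10 genes, the 3 *Postn* transcripts, whose shares depend on each other, were those without overlap. *Acta2* was divided between *NM_007392* and *XM_006526606*. By reads, *NM_007392* held 63.6% ± 2.1 in the control mice and 65.9% ± 5.0 in the knockout mice (SD, n = 3), and *XM_006526606* the rest. By TPM, *NM_007392* held 40.1%, 42.1% and 37.7% in the control mice and 38.6%, 48.8% and 39.7% in the knockout mice. The split overlapped between the groups by both measures, but which form was larger depended on the measure. *Pdgfrb* was divided between *NM_008809* with 63.4% ± 1.6 and 63.7% ± 5.8, and *NM_001146268* with 36.1% ± 1.7 and 35.8% ± 5.7. The division of *Mylk* reads was unstable within the groups. Its transcript *NM_139300* held 676, 222 and 4 reads in the control mice and 1, 412 and 188 reads in the knockout mice, so the drop in *Mylk* is given for the gene only.

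Of the 10 genes, 1 was called at an adjusted p under 0.05 in edgeR, and it was lower in the knockout group, while 0.898% of all 14261 genes were called and 0.568% were called as lower. Lower in the knockout group were 8 of the 10 genes, against 50.6% of all genes, and the median log2 fold change was -0.39, against -0.002 over all genes. At an unadjusted p under 0.05, 4 of the 10 genes were lower (*Acta2*, *Mylk*, *Rgs5* and *Cspg4*), and 1, *Pdgfrb*, was higher, whereas 8.55% of all genes were lower and 5.97% higher by this criterion. The groups did not overlap for 5 genes, all lower in the knockout group (*Acta2*, *Myh11*, *Mylk*, *Rgs5* and *Cspg4*), and for 0 of the 10 was the knockout group higher without overlap. Over all genes these shares were 11.4% and 8.94%. DESeq2 called 3 of the 10 as lower, *Mylk*, *Acta2* and *Rgs5*, and it called 4.77% of all genes, 2.65% as lower. In the blocked fit 0 of the 10 genes were called, and 0.33% of all genes.

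The wider set of contractile genes was evenly split in direction, but it mixes smooth muscle genes with genes of non-muscle cells and of skeletal muscle. Its median thus does not describe smooth muscle genes alone. Of 24 further genes of the smooth muscle apparatus that were tested, 12 had a higher and 12 a lower level in the knockout group, 0 were called by edgeR in either direction, and the median log2 fold change was 0.01. At an unadjusted p under 0.05, 2 were lower and 0 higher, against 8.55% and 5.97% of all genes. DESeq2 called 1 as lower, against 2.65% of all genes. Without overlap between the groups, 4 were lower and 0 higher, against 11.4% and 8.94% of all genes. These 4, named here after their values were seen, were *Lmod1*, *Myl9*, *Myl6* and *Ppp1r14a*. Their log2 fold changes were -0.48, -0.30, -0.12 and -0.68. The largest differences were in genes that skeletal muscle also uses. *Des*, the intermediate filament desmin of all muscle, had 30.1, 56.1 and 119 CPM in the control mice and 139, 81.1 and 368 CPM in the knockout mice. *Tpm2*, which encodes β-tropomyosin, and *Pdlim3*, an actin-associated LIM protein of the Z-disc, had log2 fold changes of 1.05 (SE 0.55) and 1.00 (SE 0.58). *Ppp1r14a*, which encodes the inhibitor CPI-17 of myosin phosphatase, had 4.76, 4.15 and 3.84 CPM in the control mice and 2.71, 3.57 and 1.68 CPM in the knockout mice, with a log2 fold change of -0.68 (SE 0.28, edgeR adjusted p = 0.334).

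Among 18 further mural cell genes, 1 was called by edgeR, against 0.898% of all genes. A lower level in the knockout group was found for 13 of them, against 50.6% of all genes. The median log2 fold change of the 18 was -0.25. The called gene was *Steap4*, a metalloreductase of the plasma membrane found in pericytes. *Steap4* had 85.7, 86.4 and 73.7 CPM in the control mice and 48.9, 48.8 and 42.0 CPM in the knockout mice. The groups were far apart for their spread, and *Steap4* was downregulated with a log2 fold change of -0.81 (SE 0.09, edgeR adjusted p = 0.0191, or 0.0133 with the replicate block). Its adjusted p was 0.11, 0.109 and 0.0968 without the first or the second control mouse or the first knockout mouse. At an unadjusted p under 0.05, 9 mural genes were lower and 2 higher, against 8.55% and 5.97% of all genes. Without overlap between the groups, 8 were lower and 2 higher, against 11.4% and 8.94% of all genes. *Steap4* was among the 8 lower genes. DESeq2 called 3 of the 18 as lower and 0 as higher, against 2.65% of all genes called as lower. The 2 higher genes without overlap, named here after their values were seen, were *Higd1b* and *Rgs4*. *Higd1b*, a pericyte marker, had 2.28, 2.62 and 2.52 CPM in the control mice and 3.75, 3.79 and 3.41 CPM in the knockout mice (log2 fold change 0.56, SE 0.16, edgeR adjusted p = 0.178). *Rgs4*, a relative of *Rgs5*, had 47.7, 48.7 and 44.3 CPM against 57.6, 61.4 and 50.4 CPM (log2 fold change 0.27, SE 0.08, edgeR adjusted p = 0.209).

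Genes of fibroblast activation and scar matrix were mixed. Of 25 tested, 14 were higher and 11 lower in the knockout group and 0 were called by edgeR, with a median log2 fold change of 0.02. At an unadjusted p under 0.05, 7 were higher and 4 lower, against 5.97% and 8.55% of all genes. DESeq2 called 6 as higher and 3 as lower, against 4.77% of all genes called in either direction and 2.65% as lower. *Itga11*, the collagen-binding integrin subunit of myofibroblasts, had 280, 257 and 270 CPM in the control mice and 423, 340 and 383 CPM in the knockout mice (log2 fold change 0.50, SE 0.09, edgeR adjusted p = 0.0614). *Fn1*, which encodes fibronectin, had 8776, 7647 and 8104 CPM against 12350, 9751 and 10514 CPM (log2 fold change 0.41, SE 0.10, edgeR adjusted p = 0.126). Both were separate between the groups on the side opposite to *Acta2*. Without overlap between the groups, 7 genes of this list were higher and 3 lower, against 8.94% and 11.4% of all genes. The 3 lower genes, named here after their values were seen, were *Col3a1*, *Loxl2* and *Fap*. Their log2 fold changes were -0.24 (SE 0.06), -0.29 (SE 0.09) and -0.29 (SE 0.07), and they were on the same side as *Acta2*. *Ccn2*, a target of transforming growth factor β, had a log2 fold change of 0.37 (SE 0.21), and its groups overlapped.

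Of 26 regulators of the contractile programme and ligands that act on these cells, 1 was called by edgeR, against 0.898% of all genes. *Tgfb3*, a ligand of the transforming growth factor β family, had 338, 356 and 343 CPM in the control mice and 488, 428 and 466 CPM in the knockout mice. It was upregulated with a log2 fold change of 0.41 (SE 0.07, edgeR adjusted p = 0.0467), close to the threshold. Its adjusted p was 0.0953 with the replicate block and 0.0539 with upper-quartile scaling, and the call was lost without any 1 of 5 of the 6 mice, being kept only without the second knockout mouse. Over this list 12 genes were higher and 14 lower, and the median log2 fold change was -0.01.

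**Figure D5:**
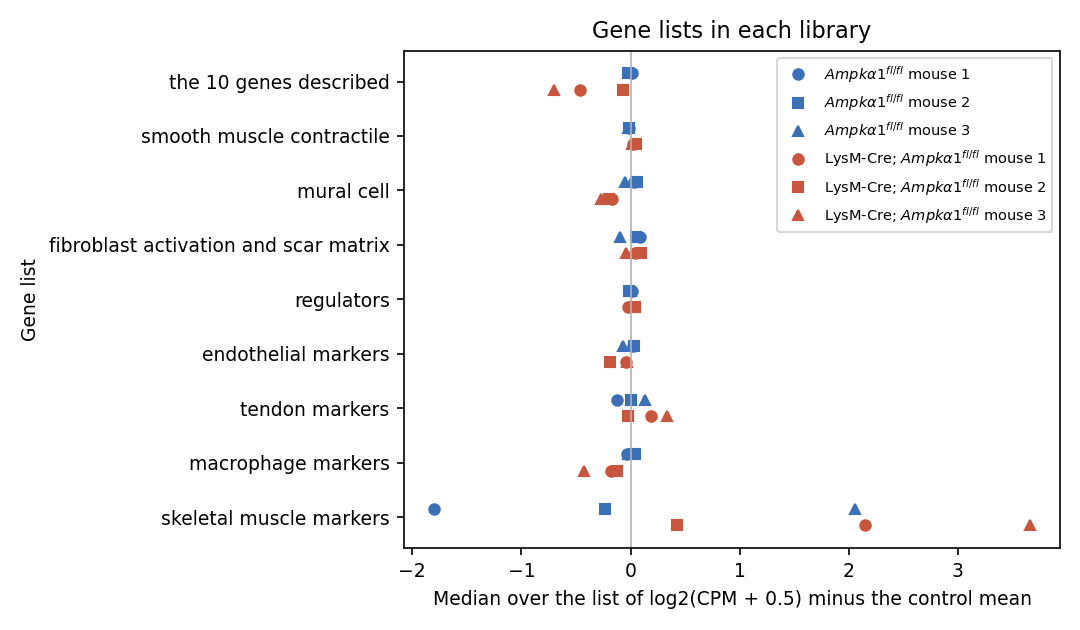
Median over each gene list of log2(CPM + 0.5) minus the mean of the control mice (horizontal axis), per mouse, control in blue and knockout in red. The 10 genes described have medians of -0.46, -0.07 and -0.70 in the knockout mice, the 18 mural genes -0.17, -0.20 and -0.27, and skeletal muscle markers spread widely in both groups.

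The markers of other cells of the tissue were compared in the same way. All 20 skeletal muscle markers were higher in the knockout group (median log2 fold change 1.80), and 0 were called by edgeR, at an unadjusted p under 0.05 or by DESeq2. The fast myosin *Myh2* had the largest value, 2.64 (SE 1.14). Of 12 endothelial markers, 10 were lower and 2 higher in the knockout group, and 0 were called by edgeR. At an unadjusted p under 0.05, 3 were lower and 1 higher, against 8.55% and 5.97% of all genes. Without overlap between the groups, 4 were lower and 1 higher, against 11.4% and 8.94% of all genes. DESeq2 called 2, *Cldn5* and *Tek*, as lower, against 2.65% of all genes. The summed level of the 12 was 1016 to 1092 CPM in the control mice and 933 to 1037 CPM in the knockout mice. *Tek*, the angiopoietin receptor of endothelium, had 66.0, 70.4 and 63.3 CPM against 53.6, 54.2 and 51.2 CPM (log2 fold change -0.33, SE 0.06, edgeR adjusted p = 0.0664). Of 12 macrophage markers, 0 were called by edgeR, and DESeq2 called 4 as lower, against 2.65% of all genes. At an unadjusted p under 0.05, 6 were lower and 1 was higher, against 8.55% and 5.97% of all genes. The summed level of the macrophage markers was 1179 to 1228 CPM in the control mice and 764 to 993 CPM in the knockout mice. The third knockout mouse was the lowest of all 6 mice for the macrophage sum, for the mural sum (905 CPM against 1018 to 1138 CPM) and for all 6 contractile genes. Tendon markers had a median log2 fold change of 0.16, and 0 of the 10 were called by edgeR. *Col11a1* and *Comp* were higher at an unadjusted p under 0.05 and called by DESeq2. Over all genes, 5.97% were higher at an unadjusted p under 0.05, and DESeq2 called 4.77% in either direction. How far the shares of these cells in the tissue went together with the levels of the contractile and pericyte genes was not tested.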

How the data were processed

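The libraries were made from total RNA of whole tendon tissue and sequenced on the BGISEQ platform. The deposited table lists 65053 RefSeq transcripts, with an estimated count made by the authors for every library, not normalized, and the authors' TPM value, which is scaled to transcript length and to an equal total in each library. The submitters' processing notes name the genome build GRCm38.p6. The aligner, the counting tool and whether strand was used are not given in the sources used here. The deposited FPKM (6 columns), normalized count (6 columns) and group average (8 columns) values were not used.

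The estimated counts were summed per NCBI Gene identifier and rounded, which gave 18099 genes (18049 with a symbol). Replicates differed by more than sampling noise in every pair within a group (chi-square per degree of freedom 8.51 to 36.4), so none was a plain copy of another. This measure cannot tell a separate mouse from a second preparation of the same tissue, and pairs across the groups were not compared. The 14261 genes that edgeR 4.0.16 (R 4.3.3) kept by filterByExpr were compared by its quasi-likelihood F test after TMM scaling, and a gene was called where the p adjusted by Benjamini-Hochberg was under 0.05. An SE is the log2 fold change over the root of F. The study's methods name unpaired comparisons, so the main fit has no block. Same-numbered mice, by the replicate numbers in the labels, had correlated deviations from their group means (0.13, 0.133 and 0.32), although the first control mouse correlated more with the second knockout mouse (0.537), and the fit with the replicate number as a block is given where it changes a call. Single values were compared with an exact permutation test on log2(CPM + 0.5) or on transcript shares, two-sided. Transcripts with under 5% of a gene's reads were left out of the shares. The p-values set the group difference against the spread between 3 mice a group. In edgeR and DESeq2 the spread of a gene is estimated with help from the other genes tested.

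The members, the 8 other gene lists and the tests were chosen with earlier results of these data known. All 10 members are named, and from each list the genes called, or otherwise up to 4 with the largest change, besides the actin paralogs, *Prkaa1* and *Lyz2*. A gene that this rule names is not reported here. Alternatives were RLE and upper-quartile scaling, DESeq2 1.42.0, no filter, at least 10 reads in every library, the replicate block, leaving out each mouse, and shares from TPM. The test was checked on simulated data.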

Additional observations from a re-analysis of the deposited data

How the results depend on the processing

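Across all genes, 128 were called in edgeR, 680 with DESeq2 and 47 with the replicate block, and leaving out 1 mouse at a time gave 8 to 276 (276 without the second knockout mouse, 60 without the third). Of the 10 genes described, 1 was called in edgeR, 3 with DESeq2, 0 with the replicate block and 0 to 2 with 1 mouse left out. DESeq2 called 1 of the smooth muscle contractile genes, 3 mural genes, 9 of fibroblast activation and scar matrix, 2 endothelial, 2 tendon and 4 macrophage markers, where edgeR called 0, 1, 0, 0, 0 and 0. For regulators the 1 call became 0 with upper-quartile scaling and 0 with the replicate block. For macrophage markers 0 became 1 with no filter and 1 with at least 10 reads in every library. Leaving out 1 mouse gave 0 to 1 calls for the mural genes, for fibroblast activation and scar matrix, for the regulators and for the macrophage markers. The log2 fold change of *Actc1* was 1.22, and with 1 mouse left out it lay between -0.16 (without the third knockout mouse) and 2.86. The replicate block changed no other call among the genes named than those of *Mylk* and *Tgfb3*. Among the 10 genes, *Tagln* and *Postn* had log2 fold changes near 0 whose sign turned when 1 mouse was left out (-0.40 to 0.02 and -0.10 to 0.07), and the other 8 kept their direction. The cause of these shifts was not tested.

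With 3 mice a group, the exact test cannot reach 0.05. The lowest count of any of the 10 genes was 157 reads, for *Cnn1* in the third knockout mouse. The tissue was not separated into cells, so a change in a pericyte gene is a change in the whole sample.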
